A study of Mus musculus with 2 samples.

Results

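The genes of the mitochondrial respiratory chain were examined in optic nerve and optic tract, a white matter sample, from male WT mice and from male CD47 KO mice, which the labels call CD47 null. Members were chosen by gene symbol. A gene belonged when its symbol began with Ndufa, Ndufb, Ndufc, Ndufs, Ndufv, Uqcr, Cox4i, Cox5, Cox6, Cox7, Cox8 or Atp5, or was Sdha, Sdhb, Sdhc, Sdhd or Cyc1. This gave 91 genes with 180 probe sets, out of 18193 genes with 34945 probe sets that carry 1 gene symbol. The rule uses the symbol alone. Each genotype was represented by 1 array that carried pooled RNA, from mice 13 to 15 weeks of age for WT and 12 to 15 weeks of age for CD47 KO. The number of mice per pool is given as 5 WT and 4 CD47 KO in the series text and in the study's methods, and the other way round in the labelling protocol. The comparison asks how RNA levels in white matter differ when CD47, the membrane protein that restrains microglia through the receptor SIRPα, is absent. With 1 pool per genotype there was no replicate check, and no test between the genotypes was possible.

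The respiratory chain is built from large protein complexes in the inner mitochondrial membrane. Complex I (NADH dehydrogenase) and complex II (succinate dehydrogenase) pass electrons to ubiquinone. Complex III hands them to cytochrome c, and complex IV (cytochrome c oxidase) hands them to oxygen. Complexes I, III and IV pump protons as they do so, and complex V (ATP synthase) uses the returning protons to make ATP. Most subunits are encoded in the nucleus and are the genes described here. The subunits encoded by mitochondrial DNA were not analysed here. In white matter, axons, oligodendrocytes, astrocytes, microglia and vessels all carry mitochondria. The RNA of these genes can come from each of them, and from neuronal cell bodies where the sample held any. In such bulk RNA, fewer cells of a type and less RNA per cell cannot be told apart.

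All values are MAS5 signals, a summary of probe brightness on a linear scale that has no absolute unit, and each ratio is log2 of CD47 KO over WT. Signals under a floor of 106.4, the median of all signals of both arrays, were set to the floor. Of the Cd47 probe sets, 3 lay above the floor on both arrays, and in CD47 KO they kept 34.3% to 39.5% of the WT signal. The ratio of 3' to 5' probe sets was 1.05 in WT and 1.13 in CD47 KO for Gapdh, and 2.42 and 2.19 for β-actin. Among markers of cell types, 14 of the 15 measured neuronal genes were lower in CD47 KO (median log2 ratio -0.76). The summed signal of the neuronal genes in CD47 KO was 64.2% of that in WT. They included Gad1 (2918 in WT and 1346 in CD47 KO) and Rbfox3 (682 and 341). Whether the neuronal RNA came from axons or from cell bodies in the sample was not tested. Of 13 microglial genes, 11 were higher (median 1.18). Oligodendrocyte and myelin genes (11 measured, median 0.11) and astrocyte genes (10 measured, median 0.14) were mostly slightly higher. Markers of microglia, oligodendrocytes and astrocytes, the glial cells of white matter, all exceeded the floor on 1 array or both where a probe set carried their symbol alone. Of 16 such neuronal markers, 1 was under the floor in both arrays.

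Most respiratory chain genes were slightly lower in the CD47 KO array. Of the 91 members, 87 exceeded the floor on 1 array or both. Their median log2 ratio was -0.08, with an interquartile range from -0.15 to -0.02. A log2 ratio below 0 was found for 72 of the 87 genes (82.8%). Among all 12473 measured genes 53.2% were below 0, and the median was -0.02 (interquartile range -0.19 to 0.15). The shift was small in size: only Atp5md was over 2-fold lower, 0 members were over 2-fold higher, and 80 of the 87 stayed within 1.2-fold. Of all measured genes, 0.818% were over 2-fold lower and 1.21% over 2-fold higher, so that 1 member of 87 past 2-fold is close to the background. At 1.2-fold, 5 members were lower and 2 were higher, against 18.6% and 14.5% of all genes. Most members thus lay close to 0 and on 1 side of it.

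**Figure D1:**
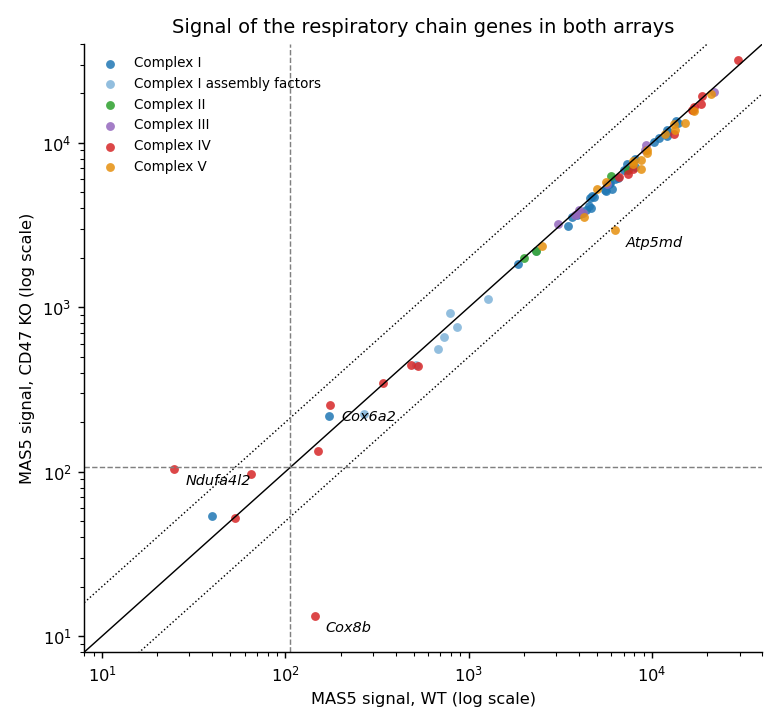
MAS5 signal of the 91 respiratory chain genes in the WT array (horizontal axis, log scale) and the CD47 KO array (vertical axis, log scale), 1 point per gene from its brightest probe set, coloured by complex. The solid line marks equal signal, the dotted lines a 2-fold difference and the dashed lines the floor at 106.4; Atp5md (6307 in WT, 2938 in CD47 KO) is the only gene with both signals over the floor that lies beyond 2-fold.

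The brightness of the genes matters for such a comparison, because dim probe sets vary more. Of the 87 measured members, 73 belonged to the brightest 25% of measured genes (3119 genes with a mean signal of at least 1525). Among these, 62 of the 73 members (84.9%) were below 0, against 49.6% of all bright genes. The median of the bright members was -0.07, and that of all bright genes was 0.00. Over 1.2-fold lower were 2 bright members, Atp5md and Atp5o, or 2.74%, against 8.62% of bright genes. Over 1.2-fold higher were 0 bright members, against 8.56%. Past 2-fold lay 0.192% of bright genes in the lower and 0.962% in the higher direction, and of the members only Atp5md. The 14 members outside the brightest 25% had a median of -0.17 with 10 below 0, and both members that were over 1.2-fold higher, Ndufb1 and Cox6a2, were among them.

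**Figure D2:**
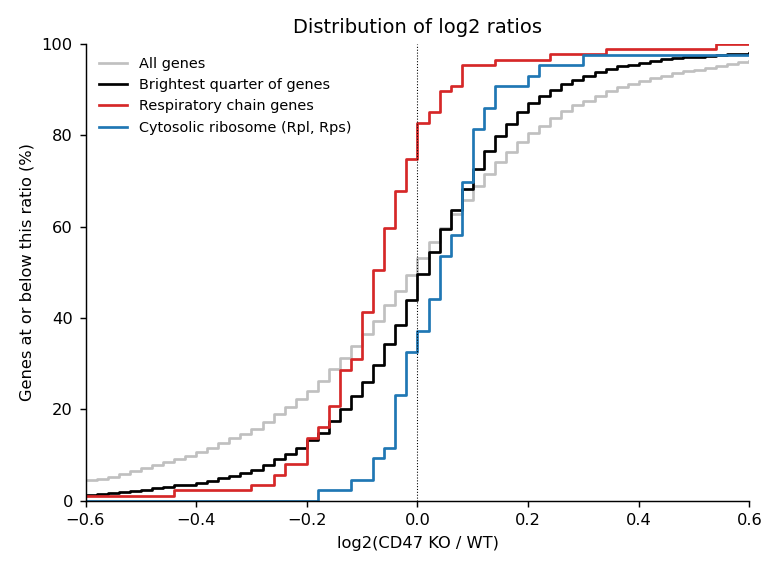
Share of genes (vertical axis, percent) at or below each value of log2(CD47 KO/WT) (horizontal axis) for all 12473 measured genes (grey), the brightest 25% (black), the 87 measured respiratory chain genes (red) and 43 genes of the cytosolic ribosome (blue). At a ratio of 0 the red line has reached 82.8%, and the grey line 53.2% and the black line 49.6%.

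Complex I had 34 members, of which 33 were measured, with a median of -0.06 and 28 below 0. Among the core subunits are those that carry the flavin and iron-sulphur clusters through which the electrons travel. All 6 measured core subunits were below 0 (median -0.13). The signal of Ndufs1, the largest of them, was 3478 in the WT array and 3121 in the CD47 KO array, and its log2 ratio was -0.16. In the same order, Ndufs3 gave 3918 and 3636 (-0.11). Ndufv1, which binds NADH, gave 4819 and 4692 (-0.04), and its other probe sets gave -0.18 and -0.10. Ndufs1 and Ndufs3 each had 1 probe set, so that no second reading was available. For the other core subunits the probe sets disagreed in sign. Ndufs7, near the ubiquinone site, went from 6075 to 5229 (-0.22), but its second probe set had a ratio of 0.06. Ndufs8 went from 8111 to 7163 (-0.18), with ratios of 0.04 and 0.20 among its other bright probe sets. Ndufv2 went from 6521 to 6146 (-0.09), with ratios of -0.30 and 0.05 by its further probe sets.

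The accessory subunits of complex I surround the core and are needed for its assembly and stability. Of 27 measured, 22 were below 0 (median -0.05), and their ratios ran from -0.22 to 0.33. The lowest was Ndufb6 with 4650 in WT and 4004 in CD47 KO (-0.22), and its other probe set gave -0.19. Ndufab1, the mitochondrial acyl carrier protein, gave 4348 and 3912 (-0.15), and its dimmer probe sets went the other way with 0.03 and 0.67. Ndufa9 gave 4139 and 3736 (-0.15) by its 1 probe set. Several accessory subunits were almost equal in both arrays: Ndufa1 had 13498 and 13662 (0.02), and Ndufa10 had 4607 and 4609 (0.00). The highest was Ndufb1, but its signal was near the floor, 174 in WT and 219 in CD47 KO (0.33). Ndufb4 was under the floor in both arrays and gave no ratio. For Ndufa7 the choice of probe set set the direction: the brightest gave 7024 and 6804 (-0.05), and its 4 other probe sets gave 0.17 to 0.30.

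The symbol rule also took in 8 assembly factors of complex I, Ndufaf1 to Ndufaf8, which help to build the complex but are absent from the finished enzyme. They had the lowest median among the groups, -0.19, with 7 of 8 below 0. Their signals were lower than the limit of the brightest 25% apart from Ndufaf8. Ndufaf4 gave 679 in WT and 561 in CD47 KO (-0.28), the only ratio of this group past 1.2-fold, but its second probe set gave 540 and 543 (0.01), and the median over both was -0.13. Ndufaf6 gave 268 and 226 (-0.25). Ndufaf2 went the other way, with 786 and 925 (0.23). No other member of this group was above 0.

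**Figure D3:**
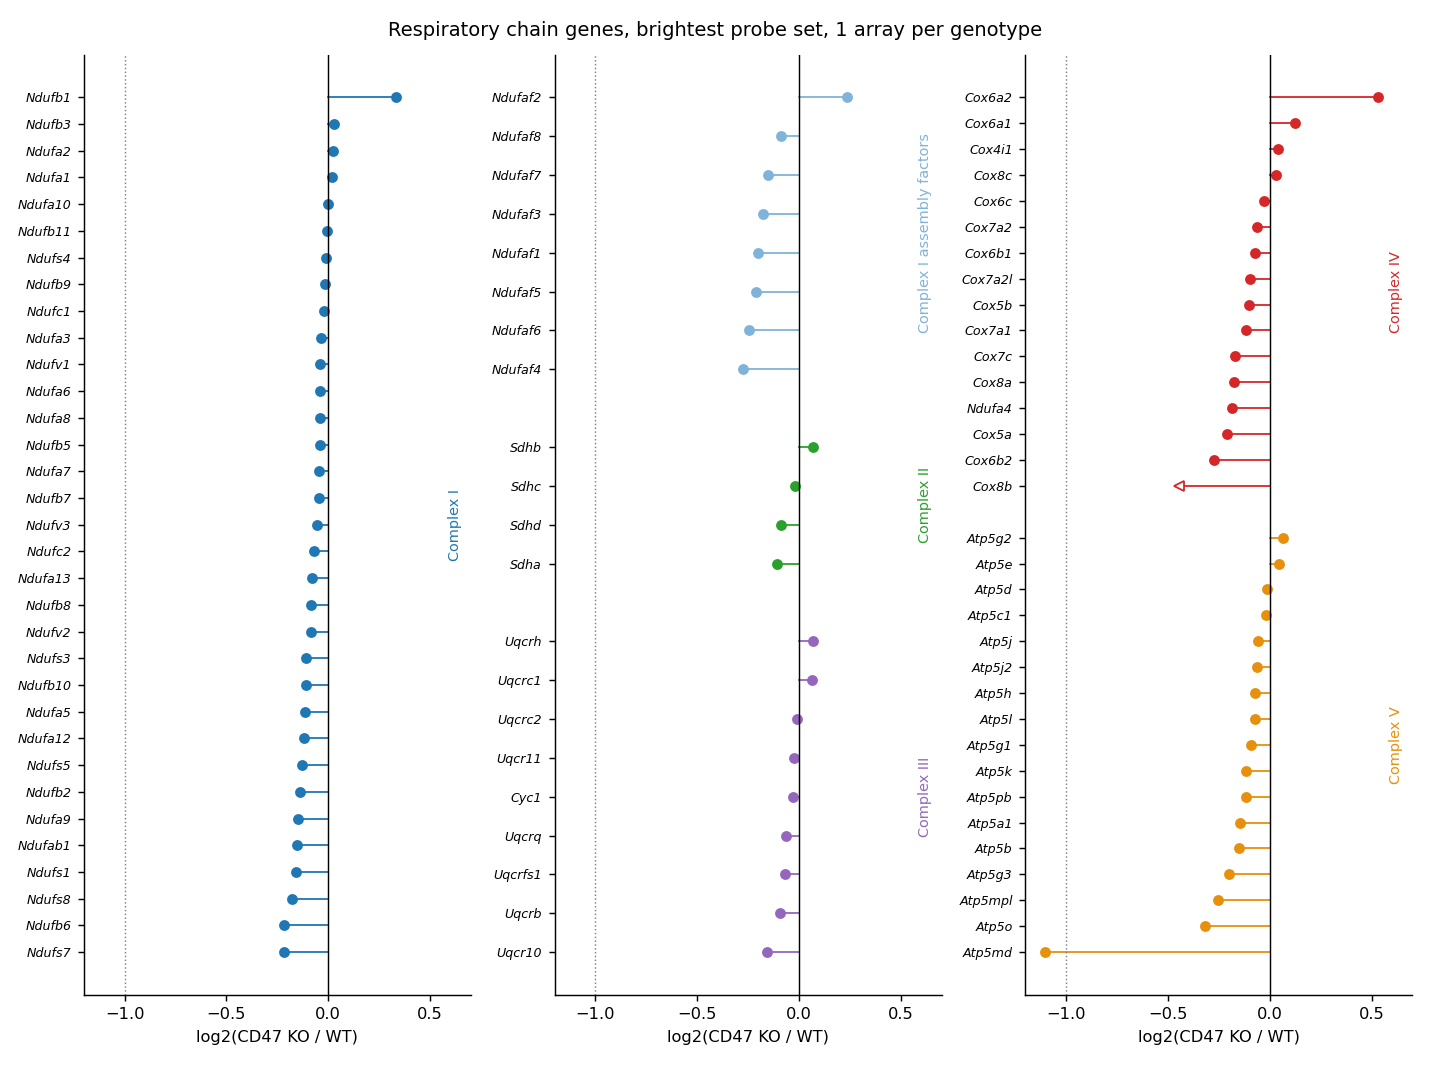
The 87 measured respiratory chain genes, 1 point per gene, ordered within each complex by log2(CD47 KO/WT), the horizontal axis; the dotted line marks 2-fold lower. The open triangle (Cox8b) is a bound, with the CD47 KO signal set to the floor; 72 genes lie left of 0 and Atp5md is the only one past the dotted line.

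Complex II, the only respiratory complex encoded wholly in the nucleus, had all 4 subunits measured, with a median of -0.06 and 3 below 0. Sdha, the flavoprotein that oxidises succinate, gave 7390 in WT and 6857 in CD47 KO (-0.11), and its second bright probe set gave -0.13. Sdhb, the iron-sulphur subunit, gave 6007 and 6306 (0.07). The membrane anchors Sdhc and Sdhd gave 2014 and 1984 (-0.02), and 2338 and 2197 (-0.09). A dimmer probe set of Sdhc gave 742 and 868 (0.23), on the other side of 0. Sdhd had a second, dimmer probe set with 830 and 458 (-0.86), which was far below the first. Thus the catalytic pair Sdha and Sdhb lay on opposite sides of 0.

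Complex III had all 9 members measured and the median closest to 0, -0.03, with 7 below 0. Its catalytic subunits in the nucleus are cytochrome c1 (Cyc1) and the Rieske iron-sulphur protein (Uqcrfs1). Cyc1 gave 4008 in WT and 3928 in CD47 KO (-0.03), and Uqcrfs1 gave 3894 and 3708 (-0.07). Among the accessory subunits Uqcr10 was lowest, with 4184 and 3748 (-0.16), although its dimmer probe sets gave 0.13 and 0.07, followed by Uqcrb with 21704 and 20308 (-0.10). Uqcrh and Uqcrc1 were above 0, with 9263 and 9711 (0.07) and with 3076 and 3213 (0.06). No gene of complex III differed by 1.2-fold in either direction.

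Complex IV had 19 members, of which 16 were measured (median -0.10, 12 below 0). Among its 10 commonly used subunits, 8 were below 0. Cox5a gave 13133 in WT and 11341 in CD47 KO (-0.21), and its other bright probe sets gave -0.27 and -0.12. Ndufa4, first described in complex I and now counted with complex IV, gave 7371 and 6485 (-0.18). Cox8a gave 7854 and 6950 (-0.18). The exceptions were Cox4i1, with 18736 and 19249 (0.04), and Cox6a1, with 29268 and 31900 (0.12), the highest ratio among the bright members. The second probe set of Cox6a1 gave 11835 and 11185 (-0.08), so that the direction for this gene was not settled. Cox7a2l, which joins complexes into supercomplexes, gave 6641 and 6202 (-0.10). Cox7c was read only dimly by its probe sets with 1 symbol (151 and 134).

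Some complex IV subunits exist in isoforms used in particular tissues, and 8 of these were among the members. Those typical of heart and skeletal muscle are Cox6a2, Cox7a1 and Cox8b; those typical of testis are Cox6b2, Cox7b2 and Cox8c. Cox6a2 gave 176 in WT and 254 in CD47 KO (0.53), where its common partner Cox6a1 gave 0.12. Cox7a1 gave 483 and 446 (-0.12), beside -0.06 for Cox7a2 (16538 and 15839). Cox8b gave 145 in WT and 13.3 in CD47 KO, which is under the floor, so that it was at least 1.36-fold lower. By these values the muscle isoforms did not move in 1 direction, but the signals of Cox6a2 were near the floor. The second probe set of Cox6a2 gave 12.9 in WT, under the floor, and 112 in CD47 KO (0.07, a bound). Its median over both was 0.30. Of 13 skeletal muscle markers 9 were under the floor in both arrays, among them myosin heavy chains Myh1, Myh2 and Myh4, and the 4 others were below 0 (median -0.23, and 0.062 over all 13 with no floor). Casq1 gave -0.19 and Acta1 -0.07, and Ckm (-0.33) and Tnnc1 (-0.26) are bounds, above the floor only in WT. Cox6b2 gave 532 and 440 (-0.27), beside -0.07 for Cox6b1 (16819 and 15971), and Cox8c gave 340 and 348 (0.03). Cox4i2, Cox7b2 and Ndufa4l2 were under the floor in both arrays.

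Complex V had 17 members, all measured, with a median of -0.09 and 15 below 0. The catalytic F1 head is made of the subunits α (Atp5a1), β (Atp5b), γ (Atp5c1), δ (Atp5d) and ε (Atp5e). The α subunit gave 8700 in WT and 7873 in CD47 KO (-0.14), and the β subunit gave 13342 and 12006 (-0.15). By their brightest probe sets the γ, δ and ε subunits were nearer to 0, at -0.02 for both Atp5c1 and Atp5d and 0.05 for Atp5e. The order of α and δ depended on the probe set. A second bright probe set gave -0.02 for Atp5a1 (7140 and 7020) and -0.20 for Atp5d (3410 and 2973). The 3 genes of the rotating c ring encode the same mature protein with different import sequences. Of these, Atp5g1 gave 2521 and 2367 (-0.09), Atp5g2 gave 4982 and 5216 (0.07), and Atp5g3 gave 15200 and 13210 (-0.20). So 6 of these 8 genes were below 0, and none reached 1.2-fold.

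The stalks and the membrane part of ATP synthase held the gene with the lowest ratio of the chain, Atp5md. All 9 genes of this group were below 0 (median -0.12). This gene, also named Usmg5 or DAPIT, encodes a small membrane subunit that holds dimers of ATP synthase together, and gave 6307 in WT and 2938 in CD47 KO (-1.10), or 2.15-fold lower. It has 1 probe set, so that no second reading was available. Atp5o, which joins the F1 head to the peripheral stalk, gave 8650 and 6936 (-0.32), and its second probe set gave -0.27. Atp5mpl, another small membrane subunit, gave 4253 and 3567 (-0.25). The remaining 6, Atp5pb, Atp5h, Atp5j, Atp5j2, Atp5k and Atp5l, were between -0.12 and -0.06. The ratio of Atp5md was thus well outside that of the subunits beside which its protein sits.

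The nearest measured genes on either side of Atp5md and Atp5o were examined, with the gene order taken from RefSeq. Next to Atp5md lay Taf5 (-0.17) and Pdcd11 (-0.51), and beyond these Pcgf6 (-0.19) and Calhm2 (0.13). Pdcd11 was dim, with 380 in WT and 267 in CD47 KO. Next to Atp5o lay Itsn1 (0.34) and Slc5a3 (0.50), and beyond these Cryzl1 (0.02) and Mrps6 (0.38). None of the 8 neighbours was over 2-fold different. The neighbours of Atp5o did not share its direction.

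Promoters from RefSeq (mouse build GRCm38.p6) were matched for 74 of the 91 members, as 250 bases before to 50 bases after the start of transcription. They were searched on both strands for the core of NRF1 sites (CGCATGCGC), ETS or GABP sites (CCGGAAG), ERR sites (TCAAGGTCA) and YY1 sites (AAGATGGCG), factors known to act on respiratory genes. The NRF1 core reads nearly the same on both strands, so that its matches often overlap by all but 1 base. It was held by 9 member promoters (12.2%), against 1.95% of all promoters and 3.91% of those of measured genes. ETS was held by 19 (25.7%, against 9.93% and 18.7%), YY1 by 7 (9.46%, against 1.64% and 3.38%) and ERR by 2 (2.70%, against 0.466% and 0.347%). In all, 30 promoters held at least 1 of the motifs. The median log2 ratio was -0.04 for members with the NRF1 core and -0.09 for those without, and -0.07 and -0.09 for the ETS core. It was -0.06 and -0.09 for the YY1 core, and -0.15 and -0.08 for the ERR site with its 2 members. A match describes letters only and is not a measured binding site. The 150 bases before the start are given for the lowest bright members (Atp5md and Atp5o), for a membrane subunit of complex V with a ratio of -0.12 (Atp5k) and for the highest bright member (Cox6a1), a choice made with their values known. All lie on the minus strand, at chr19:47090648-47090797, chr16:91931631-91931780, chr5:108434400-108434549 and chr5:115348959-115349108, and are written 5′ to 3′. Capitals mark the NRF1 match in Atp5k and the ETS match in Cox6a1.
Atp5md: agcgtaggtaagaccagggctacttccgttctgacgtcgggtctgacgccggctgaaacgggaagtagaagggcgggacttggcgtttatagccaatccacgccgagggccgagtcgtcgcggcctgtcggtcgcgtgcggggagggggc
Atp5o: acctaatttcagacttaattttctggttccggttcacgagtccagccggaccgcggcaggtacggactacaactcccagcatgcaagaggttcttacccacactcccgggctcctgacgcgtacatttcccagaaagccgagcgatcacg
Atp5k: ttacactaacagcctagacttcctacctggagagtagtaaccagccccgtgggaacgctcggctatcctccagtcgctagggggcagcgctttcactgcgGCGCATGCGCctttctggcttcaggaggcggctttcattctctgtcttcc
Cox6a1: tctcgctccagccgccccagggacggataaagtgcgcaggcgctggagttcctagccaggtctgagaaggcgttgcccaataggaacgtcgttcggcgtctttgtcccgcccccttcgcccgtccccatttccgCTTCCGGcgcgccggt
The stretches shown for Atp5md and Atp5o hold none of the 4 motifs. In the whole searched window, ETS matches lay at position 2 in Atp5md and 12 in Atp5k, relative to the start of transcription. Cox6a1 held an NRF1 match at position -162. All of these lay outside the bases printed. For Atp5o no match says only that these letters are not in this window.

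Different probe sets of the same gene were the sole repeat measurement, and they say nothing of the spread among mice or among arrays. Among all genes, the log2 ratios of 11653 such pairs with both signals over the floor differed with an SD of 0.36. For the 1705 pairs of all genes with both probe sets bright this SD was 0.21, and 95% were within 0.41 of each other. Among pairs of bright probe sets of members (70 pairs in 35 genes) the SD was 0.13, and 95% of them were within 0.28 of each other. Most single ratios of members were smaller than that. Of the 73 bright members, 2 were farther from 0 than 0.28, Atp5md and Atp5o. The common direction was nevertheless found over the probe sets. Of 123 bright member probe sets, 100 were below 0 (median -0.07). So were 116 of the 154 member probe sets with both signals over the floor. These counts, and those of signs within a gene given next, were not made for the probe sets of all genes. They therefore have no background of their own. The share of all bright genes below 0, 49.6%, rests on the brightest probe set of each gene. Of the 35 members with at least 2 bright probe sets, 26 had all of them below 0, 1 (Uqcrh) had all above 0 and 8 had both signs. Atp5o, Cox5a and Ndufb6 were the lowest of those that kept 1 sign. Ndufs8, Ndufv2 and Ndufa7 spread the widest. A further 8 measured probe sets that carry several symbols, at least 1 of them a member, were left out; their median was -0.14, with 7 below 0.

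**Figure D4:**
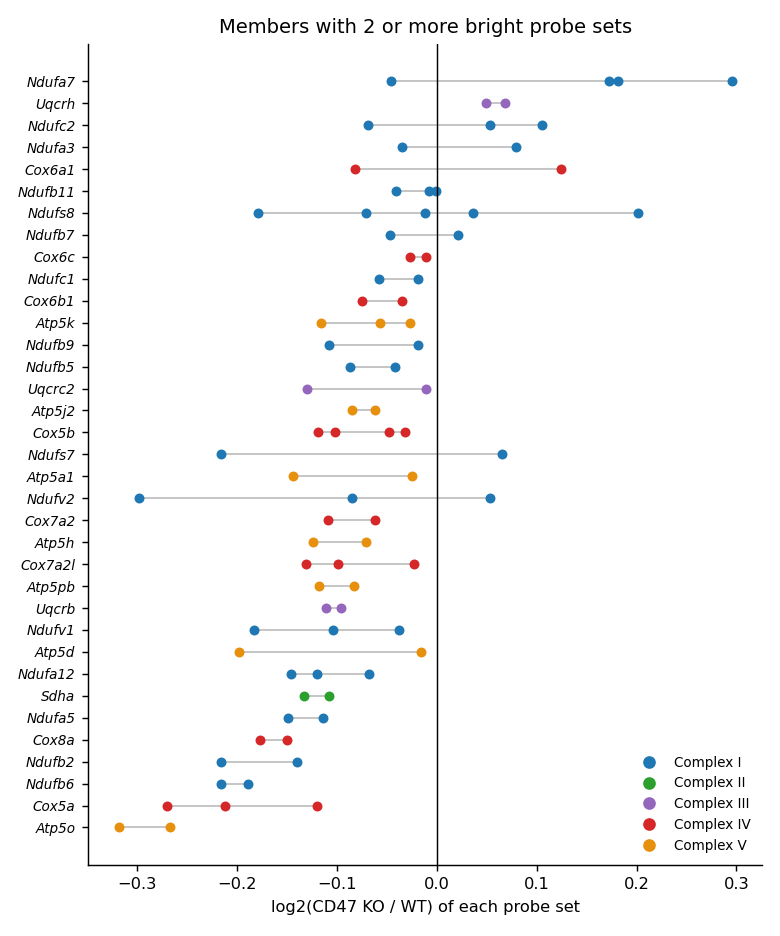
Every bright probe set, 1 point each, of the 35 respiratory chain genes with at least 2 of them, placed by log2(CD47 KO/WT) on the horizontal axis, ordered by their median and coloured by complex; the grey line joins the probe sets of 1 gene. In 26 genes all points lie left of 0, in 1 gene (Uqcrh) all lie right of it, and 8 genes cross 0.

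Lists of genes that work beside the respiratory chain were read against the 53.2% of all genes below 0. Of 17 measured genes of the TCA cycle and pyruvate dehydrogenase, 15 were below 0 (88.2%, median -0.12). Ogdh, the first subunit of the oxoglutarate dehydrogenase complex, gave 1211 in WT and 915 in CD47 KO (-0.40), and malate dehydrogenase Mdh2 gave 11712 and 9370 (-0.32). Of 21 carriers, porins and import genes 15 were below 0 (71.4%, median -0.07, and -0.019 when probe sets marked for cross-hybridisation were dropped), with the import channel subunit Timm17b at -0.36 and the outer membrane porin Vdac1 at -0.27. Of 13 electron carriers and ATP synthase regulators 8 were below 0 (61.5%, median -0.05), which is near the share of all genes. Among these, Atpif1, the inhibitor of ATP synthase, gave 5393 and 4327 (-0.32), and Etfdh, which passes electrons from fat oxidation to ubiquinone, gave 1190 and 1469 (0.30). Cytochrome c (Cycs), the carrier between complexes III and IV, gave 13549 and 11199 (-0.27). Of 35 further assembly factors 24 were below 0 (68.6%, median -0.07, and -0.026 in the same setting). The largest ratio there was that of Oxa1l, an insertase of the inner membrane, which was dim and went the other way (176 and 334, 0.92), and Atpaf2 gave 119 and 150 (0.34).

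The ribosomal, regulatory and hypoxia lists had medians close to 0. Among 76 genes of the mitochondrial ribosome, a list chosen after values had been seen, 38 were below 0 (median 0.01, and -0.021 by the median over probe sets), with 1 gene, Mrpl44, over 2-fold lower (11288 in WT and 4896 in CD47 KO, -1.21), and Mrpl37 at 0.59. Among 43 genes of the cytosolic ribosome, chosen likewise, 16 were below 0 (median 0.03), with Rps27 at 0.94 and Rpl6 at 0.29. The 14 regulators of respiratory genes had a median of 0.03 and 6 below 0. Within this list the transcription factor Nrf1 was lower (219 and 139, -0.66), though its CD47 KO signal was near the floor. Ppargc1a, the coactivator that drives mitochondrial biogenesis, was also lower (875 and 607, -0.53). Gabpb1, a subunit of the ETS factor GABP, was higher (117 and 212, 0.86), though its signals were near the floor, and its partner Gabpa gave 1636 and 1729 (0.08). Of 11 measured genes of the hypoxia response 5 were below 0 (median 0.02, and -0.045 with no floor), and hexokinase Hk2 was over 2-fold higher (430 and 935, 1.12), followed by P4ha1 (692 and 942, 0.44).

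Neuronal and microglial markers had ratios much farther from 0 than the respiratory chain genes. The median of the neuronal markers was -0.76, and their 2 lowest were the neurofilament gene Nefm (406 in WT and 162 in CD47 KO, -1.32) and the glutamate transporter gene Slc17a6 (601 and 247, -1.28). Slc17a7 was the only neuronal marker under the floor in both arrays. Microglial markers were higher in summed signal, at 203% of WT, led by Trem2 (436 and 2795, 2.68) and Fcrls (556 and 3255, 2.55). They did not all move together: 11 of the 13 measured were higher and 2 were lower. The lower ones were Tmem119 (1205 and 842, -0.52) and P2ry12 (1586 and 1442, -0.14). Among glial markers of other kinds, the ratios farthest from 0 were those of Opalin (0.62) and Aspa (0.17) for oligodendrocytes, and of Gfap (0.52) and Sox9 (0.38) for astrocytes. Of 7 endothelial genes 6 were below 0 (median -0.26), with Kdr at -0.79 and Flt1 at -0.41. The 9 measured mural cell genes had a median of 0.03, which was 0.25 when probe sets marked for cross-hybridisation were dropped. Of these genes, Acta2 gave -0.56 and Kcnj8 0.47. Of 4 brown fat markers with a probe set of 1 symbol, 2 were measured, Cidea (722 and 664, -0.12) and Elovl3 (0.17, a bound). Of 7 such retinal photoreceptor markers only Rom1 was measured (161 and 300, 0.90), and its WT signal was near the floor. Neuronal signal was thus lower in the same array in which the respiratory chain genes were lower, and its part in their ratios was not tested. The same holds for the higher summed signal of the microglial markers.

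**Figure D5:**
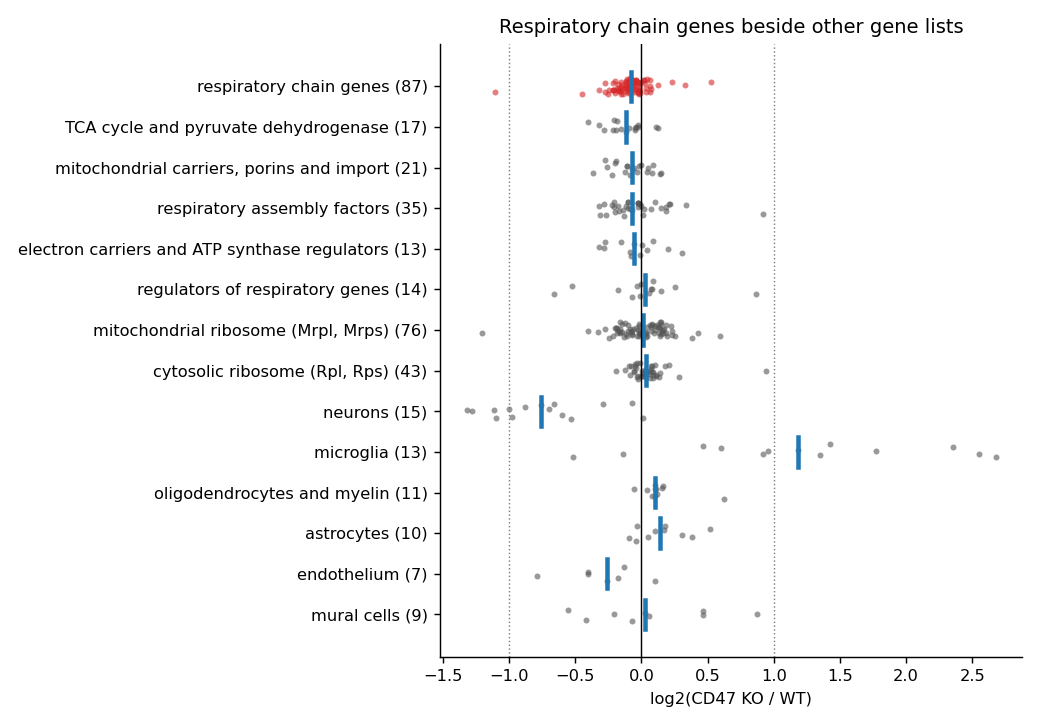
Respiratory chain genes (red) and genes of other lists (grey), 1 point per measured gene, placed by log2(CD47 KO/WT) on the horizontal axis, with the number of genes in brackets and the median as a blue bar; dotted lines mark 2-fold. Respiratory chain genes have a median of -0.08, between neuronal markers at -0.76 and microglial markers at 1.18.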

How the data were processed

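Total RNA from white matter was pooled within each genotype, labelled with biotin by in vitro transcription from the 3' end, and measured on Affymetrix mouse GeneChips, 1 per genotype. The deposited values are linear signal intensities, 1 per probe set, made by the authors with MAS5 (named in the submitters' processing notes without a version). Both arrays had the same trimmed mean of 500.003 (2% removed from each end), so that each had been scaled to 1 target.

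Of 45101 probe sets, 64 controls were set aside. Intensities were floored at the 50th percentile of both arrays (106.4), and log2(CD47 KO/WT) was taken. A gene counted as measured when 1 array or both exceeded the floor; where only 1 did, the ratio is a bound. Genes were named from the platform annotation (34945 probe sets with 1 symbol, 932 with several and 9160 with none, the latter left out) and taken from the brightest probe set. Symbols of all 91 members were found in the RefSeq gene table. MAS5 intensities are noisy near background, and a floor shortens the ratios of dim genes.

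No p-value, SD or standard error between the genotypes could be given, and precision is limited by the number of arrays. Counts past 2-fold (the study's threshold) and 1.2-fold are set beside those of all genes. The members and lists were chosen with earlier results of these data known. Genes were named by a rule: members over 2-fold, the 3 largest ratios of each complex, core and catalytic subunits, tissue isoforms with their partners, members under the floor, and the 2 largest ratios of each other list among genes above the floor on both arrays; others were chosen with their values in view. Alternatives were floors at the 40th and 60th percentile, no floor, quantile normalisation, median centring, loess (span 0.3), leaving out probe sets marked for cross-hybridisation, the median over probe sets, and subunits only. The addition of probe sets with several symbols and the restriction to the brightest 25%, and the alternatives for the medians of the lists, were chosen after seeing the data. Steps were tested on simulated data with less noise than the spread between probe sets of 1 gene. This does not test the steps at the noise of these arrays. Python 3.11.15, numpy 2.4.6, pandas 2.3.3, scipy 1.17.1, statsmodels 0.14.6 and matplotlib 3.10.9 were used. The identity of paralogous proteins was not computed.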

Additional observations from a re-analysis of the deposited data

How the results depend on the processing

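The median log2 ratio of the members stayed below 0 under all 11 alternatives (-0.10 to -0.06). That of each complex did so under the 8 run for it. Median centring moved the median of all genes from -0.017 to 0.006 and that of the members from -0.081 to -0.057. In the same order the medians were -0.015 and -0.099 with quantile normalisation, and -0.010 and -0.090 with loess. The share of members below 0 was 73.6% with arrays centred on their medians and with the median over probe sets, against 49.0% and 53.1% of all genes. The counts past a fold were small and moved. Over 2-fold lower were 2 members with the floor at the 40th percentile or with no floor, and over 2-fold higher was 1 with no floor. Over 1.2-fold higher were 4 with the floor at the 40th percentile, 1 at the 60th, 5 with no floor, 1 among subunits only and 0 in the brightest 25%. Over 1.2-fold lower were 3 with median centring, 3 with loess, 2 among subunits only and 2 in the brightest 25%. A changed floor moved the value of dim members already counted (Cox8b, Ndufb1 0.23 at the 60th percentile) and the number of members measured; for the scalings the cause was not tested. Atp5md stayed between -1.12 and -1.08. Of single genes, Cox8b gave -1.10 with the lower floor and -3.45 with none, Sdhd gave -0.47 by the median over probe sets, and Atp5c1 gave 0.38 without probe sets marked for cross-hybridisation, from a dim probe set. Ndufaf4 gave -0.13 by the median over probe sets. Cox4i1, Atp5d, Sdhc and Uqcr10 lay on either side of 0 among the alternatives. Medians of other lists also moved: without probe sets marked for cross-hybridisation that of the further assembly factors was -0.026, that of carriers, porins and import -0.019 and that of mural cells 0.25, with no floor that of skeletal muscle was 0.062 and that of the hypoxia response -0.045, and by the median over probe sets that of the mitochondrial ribosome was -0.021. No paired analysis was possible because each genotype has 1 array.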
